A study of Mus musculus with 8 samples.

Results

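The genes described here are 10 genes of the hyaluronan matrix and the perineuronal net, chosen by symbol from the 25834 genes of a hippocampal RNA-seq count table. Itih2, Itih3 and Itih5 encode heavy chains that are bound to hyaluronan, Has2 a hyaluronan synthase, Cd44 a hyaluronan receptor, Acan, Bcan and Ncan the lecticans aggrecan, brevican and neurocan, and Hapln1 and Hapln4 link proteins. The set was proposed because Itih2 was lower in SAP97-cKO hippocampus, so the genotype difference of Itih2 is given as a description, without a test. The other 9 genes were chosen by their role.

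The samples were hippocampal RNA libraries, 1 per male mouse, from 4 control and 4 SAP97-cKO animals. SAP97-cKO mice were Nestin-cre+/-; SAP97fl/fl, so that Dlg1, the gene for the scaffold protein SAP97, is deleted in the neural progenitor lineage, which gives rise to neurons and to glia such as astrocytes. Cells of the meninges and blood vessels mostly arise outside that lineage. Controls were littermates, given in the study's methods as Nes-cre+/-, SAP97fl/fl and wild-type, and which control library carried which genotype is not known from the sources used here. An age of 2 months is stated for tissue taken for western blots and is not repeated for these RNA libraries. Where controls lacked Cre, effects of Cre and of the Dlg1 deletion cannot be told apart. Each library held 37388177 to 37426572 counts, because the authors had resampled the reads to a common depth. Normalised read counts of Dlg1 were 3984 to 4692 in control and 2009 to 3066 in SAP97-cKO libraries. These counts cover the whole gene, so they do not measure how complete the deletion was. The paper reports a much larger fall for reads on an exon of this gene. It also describes a western blot check of the protein in each animal before sequencing. Every list of hippocampal and neuronal markers was detected in every library, with summed levels of 6 hippocampal markers of 647 to 851 CPM (reads scaled to library size) in control and 610.0 to 944 in SAP97-cKO libraries.

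Hyaluronan is a long, unbranched sugar polymer that is spun out through the cell membrane by hyaluronan synthases and fills the space between brain cells. Lecticans are chondroitin sulfate proteoglycans that bind hyaluronan at one end, and link proteins clamp that bond. In the perineuronal net, hyaluronan, lecticans, link proteins and tenascin-R form a lattice around some neurons, best known around parvalbumin interneurons and, in hippocampus, around CA2 neurons. Heavy chains are a different kind of partner, because they are transferred onto hyaluronan and crosslink it, a reaction best known from inflamed tissue and the ovarian follicle.

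Promoters of 3 of the genes are shown here, since Itih2 and Itih5 are head-to-head neighbours on chromosome 2 with unlike genotype differences, and Bcan was the most abundant lectican per length. Each sequence is the 250 bases before the RefSeq transcription start in GRCm38.p6, 5′ to 3′ on the gene's strand, with each CG in capitals. The Itih2 promoter is chr2:10130684-10130933 (minus strand), that of Itih5 chr2:10153293-10153542 (plus strand) and that of Bcan chr3:88000357-88000606 (minus strand).
Itih2: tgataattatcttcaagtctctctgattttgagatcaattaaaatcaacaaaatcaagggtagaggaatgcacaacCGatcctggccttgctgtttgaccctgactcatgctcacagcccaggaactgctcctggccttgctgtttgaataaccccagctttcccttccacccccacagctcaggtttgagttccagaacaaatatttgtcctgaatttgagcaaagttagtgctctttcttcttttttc
Itih5: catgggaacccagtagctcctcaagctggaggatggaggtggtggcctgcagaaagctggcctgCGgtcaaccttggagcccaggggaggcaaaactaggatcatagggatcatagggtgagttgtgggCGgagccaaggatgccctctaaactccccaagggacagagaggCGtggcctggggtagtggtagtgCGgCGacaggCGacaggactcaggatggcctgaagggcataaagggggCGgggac
Bcan: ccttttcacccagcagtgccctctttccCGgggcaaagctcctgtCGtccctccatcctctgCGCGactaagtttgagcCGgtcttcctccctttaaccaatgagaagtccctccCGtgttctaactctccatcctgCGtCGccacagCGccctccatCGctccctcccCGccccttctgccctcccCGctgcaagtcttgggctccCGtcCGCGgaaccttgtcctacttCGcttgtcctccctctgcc
The Itih2 window held 1 CG and the Itih5 window 7, beside a median of 6 over 32851 RefSeq promoters cut to the same 250 bases. The Bcan window held 16. Fewer CG than in the Itih2 window were present in 7.87% of those promoters, against 53.7% for Itih5 and 74.6% for Bcan. In GENCODE M21 the Itih2 window lies in an intron of longer Itih2 transcript models, whereas the Itih5 and Bcan windows lie outside their own genes.

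Promoter entries were matched for 8 of the 10 genes, all but Hapln4 and Has2. Acan, whose product is the classical aggrecan of the net, had the most CG of the 8 (26, with fewer in 90.4% of promoters), and Itih2 the fewest. Among the rest, Ncan had 6, Cd44 5, Itih3 3 and Hapln1 2. In GENCODE M21, all 250 bases of the Hapln1 window, 173 of the Itih3 window and 29 of the Ncan window lie in exons of the same gene. The letters TATAAA, or TTTATA for the other strand, were in the window of 1 of the 8, Ncan, and in 12.4% of all promoters. These counts describe letters in a window and were not tested against the read counts.

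Itih2 (ENSMUSG00000037254, chr2:10094593-10131396, minus strand of GRCm38) had the lower level in SAP97-cKO hippocampus for which it was chosen. Its normalised read count, which is the deposited count after scaling by TMM (trimmed mean of M values), was 210.2, 195, 133 and 182 in control replicates 1 to 4. In SAP97-cKO replicates 1 to 4 it was 72.3, 87.6, 75.0 and 41.5. All 4 SAP97-cKO libraries were below all 4 controls, with control replicate 3 the lowest control and SAP97-cKO replicate 4 the lowest library. The mean was 180.0 ± 33.4 (SD, n = 4) in control and 69.1 ± 19.6 (SD, n = 4) in SAP97-cKO hippocampus, or 38.4% of control. On the log2 scale this was -1.38 ± 0.23 (SE).

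Over all 16251 genes that passed the filter on low counts, 0.283% were lower and 0.0123% higher at the study's threshold, an adjusted p under 0.25 (edgeR's quasi-likelihood test, Benjamini-Hochberg adjustment). All 10 genes passed that filter. Itih2, from whose contrast the set was chosen, is given no call here, and 0 of the other 9 were past the threshold. At an unadjusted p under 0.05 (7.01% of all genes lower and 4.73% higher), 1 of the other 9 was higher, Ncan, and none of the 9 was lower. Limma-voom also called 0 of the 9. DESeq2 called 1, Ncan, but it called far more of all 16251 genes, 588 lower and 445 higher. The log2 fold change was below 0 for 5 of the 10 genes and above 0 for 5, with a median of 0.0074 beside -0.012 for all genes tested. The genotypes did not overlap for Itih2, a gap that follows from its choice, and for Ncan. Over all genes, 3.47% were below control in this way and 2.78% above.

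**Figure D1:**
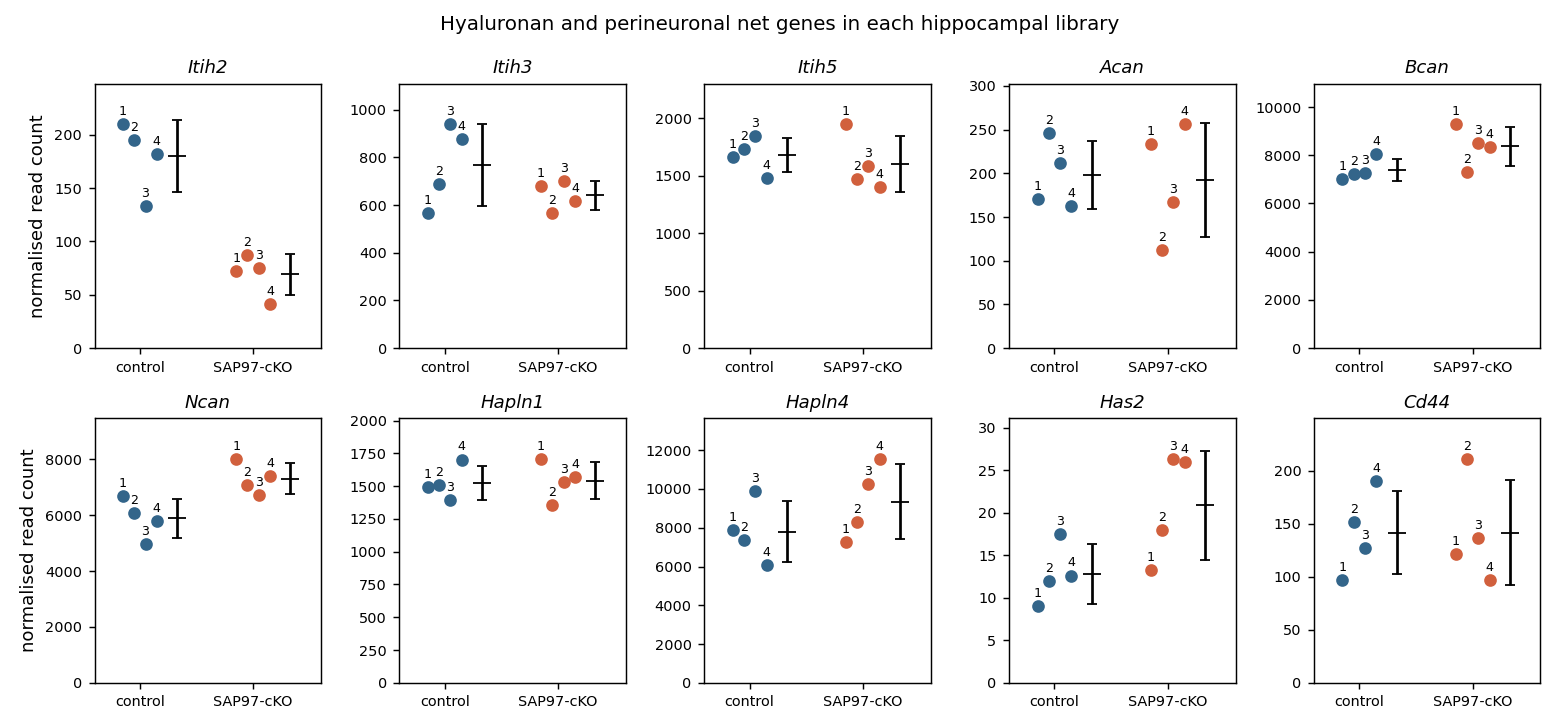
Normalised read count of each of the 10 genes (y axes, each starting at 0) in 4 control (blue) and 4 SAP97-cKO (orange) hippocampal libraries, with replicate numbers beside the points and the mean and SD of each genotype as black bars. The SAP97-cKO points of Itih2 (41.5 to 87.6) lie below the control points (133 to 210.2), those of Ncan lie just above them (6717 against 6701 at the nearest), and the points of the other 8 genes overlap.

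The other heavy chain genes did not have the Itih2 pattern. Itih5 (ENSMUSG00000025780, chr2:10153571-10256529, plus strand) starts 22174 bp from Itih2 with 0 protein-coding genes between them. Its normalised read count was 1662, 1729, 1846 and 1484 in control and 1951, 1468, 1584 and 1403 in SAP97-cKO replicates 1 to 4. Both genotypes covered much the same range, and the highest library was SAP97-cKO replicate 1. Itih5 had a log2 ratio of SAP97-cKO to control of -0.07 ± 0.11 (SE), with an adjusted p of 0.808 in edgeR.

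Itih3 (ENSMUSG00000006522, chr14:30908572-30923760, minus strand) encodes the third heavy chain, and lies 5419 bp from Itih1 and 6218 bp from Itih4. It had 568, 687, 940.4 and 879 normalised counts in control replicates 1 to 4. SAP97-cKO replicates 1 to 4 had 679, 568, 701 and 618. The SAP97-cKO libraries lay within the range of the controls, which was wider, with a coefficient of variation of 22.4% against 9.45%. Itih3 had a log2 ratio of SAP97-cKO to control of -0.26 ± 0.15 (SE), with an adjusted p of 0.504 in edgeR. Without control replicate 1, the lowest control, it was -0.38 and past the threshold (adjusted p = 0.216 from edgeR). That fit called far more genes in all, 960 lower beside 46 with all 8 libraries.

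The neighbours of Itih3 were almost silent. Itih1 had 1 read in 1 of 8 libraries, and Itih4, encoding a further heavy chain, had 0 to 5 reads per library. Ambp, which encodes bikunin, the small protease inhibitor that carries heavy chains in blood, had 1 read over all 8 libraries. None of these 3 genes passed the filter, so their genotype difference was not detectable at this depth.

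Because reads grow with transcript length, levels of different genes were compared as CPM per kb of merged exons. Of the heavy chain total in control libraries (12.8 ± 1.12 CPM per kb, SD, n = 4), Itih5 made 44.6% ± 4.38, Itih3 43.7% ± 6.54 and Itih2 11.5% ± 3.01. In SAP97-cKO libraries Itih5 made 50.5% ± 2.56, Itih3 44.2% ± 3.05 and Itih2 5.21% ± 1.53 of 10.7 ± 1.19 CPM per kb (SD, n = 4). The Itih2 share was 7.54% to 14.7% in control and 3.48% to 7.16% in SAP97-cKO libraries, a gap that follows from the choice of Itih2. The Itih5 share overlapped, with 38.8% to 48.8% in control and 48.2% to 54.1% in SAP97-cKO libraries. Itih1 and Itih4 stayed at or under 0.31% in every library.

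**Figure D2:**
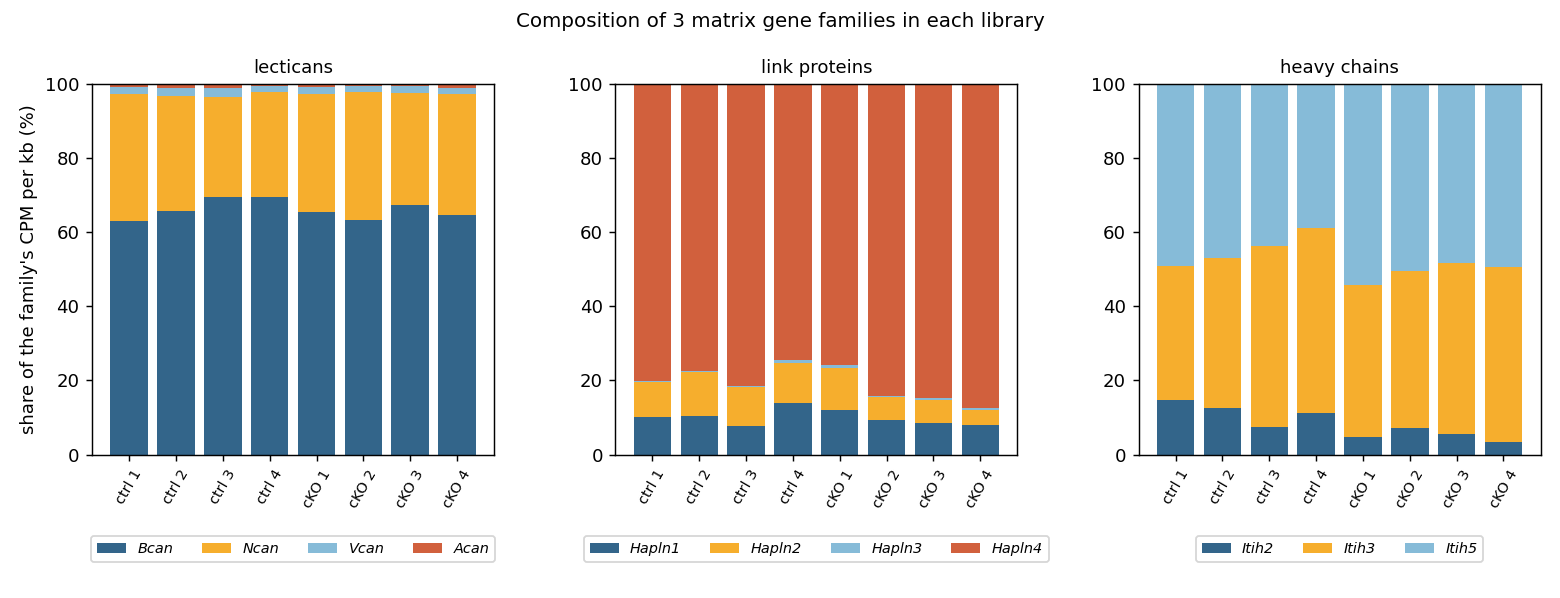
Share (y axis, percent of the family's summed CPM per kb of merged exon) of each gene in its family in every control (ctrl) and SAP97-cKO (cKO) library, for lecticans, link proteins and heavy chains, with Itih1 and Itih4 (at most 0.31%) left out of the last. Bcan and Ncan fill nearly all of the lectican bars, Hapln4 is over 74% of each link protein bar, and the Itih2 segment is smaller in the 4 SAP97-cKO bars.

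Markers of meningeal fibroblasts, the collagen-making cells of the membranes around the brain, were lower in the same 4 libraries as Itih2. The summed level of 15 such markers was 334 to 563 CPM in control and 184 to 299.9 CPM in SAP97-cKO libraries, without overlap. All 15 were detected in every library and all 15 had a log2 fold change below 0, from -0.0076 for Dcn to -1.58 for Slc22a6, with a median of -1.02. Of the 15, 7 were past the threshold (0.283% of all genes were lower at it). All 7 are also in the study's own list of changed genes from these libraries. The markers were listed with such results known, so this count is not independent of them. The most abundant of the 15 were Igf2, a growth factor, and Dcn, the small matrix proteoglycan decorin, and each of these overlapped between genotypes by itself. Igf2 had 2891 to 11050 normalised counts in control and 1668 to 4807 in SAP97-cKO libraries, and was highest in control replicate 2, as was the sum. Dcn had 1185 to 3070 in control and 610.1 to 2912 in SAP97-cKO libraries. By themselves, 10 of the 15 did not overlap (3.47% of all genes were below control in this way).

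In percent of the control mean, the marker sum was 87.3, 143, 85.2 and 84.8 in control and 49.9, 76.0, 66.6 and 46.7 in SAP97-cKO replicates 1 to 4. Itih2 was at 117, 109, 73.9 and 101 in control and at 40.2, 48.7, 41.6 and 23.1 in SAP97-cKO replicates. In the SAP97-cKO libraries both were lowest in replicate 4 and highest in replicate 2, but control replicate 2, with the highest marker sum, was not the highest for Itih2. Igf2 and Dcn weigh most in that sum, with control means of 5981 and 2087 normalised counts, beside 1000 for Col1a2, the next marker. By single marker, the SAP97-cKO mean ran from 33.3% (Slc22a6) to 99.5% (Dcn) of control, with Igf2 at 58.2%. The size of the drop in the sum is therefore not that of most of its markers. Because the marker sum did not overlap between genotypes, its part in the Itih2 difference and that of genotype cannot be told apart. In bulk tissue, fewer cells of a type and less RNA per cell cannot be told apart.

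Choroid plexus markers differed between libraries of both genotypes. Their summed level was 176 to 6914 CPM in control and 103 to 2373 CPM in SAP97-cKO libraries, with Ttr as the most abundant. The mean sum was 3046 CPM in control and 1105 CPM in SAP97-cKO libraries. All 10 markers had a log2 fold change below 0, with a median of -1.49, and 0 were past the threshold. The ranges overlapped, and the library with the least (SAP97-cKO replicate 4) also had the lowest Itih2. Control replicate 4, with 176 CPM, had 182 normalised counts of Itih2. All markers were also below 0 in the mural (median -0.18), endothelial (-0.19) and oligodendrocyte (-0.47) lists. Every other list except the meningeal one held markers on both sides of 0. The part of the choroid plexus in the Itih2 values was not tested.

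**Figure D3:**
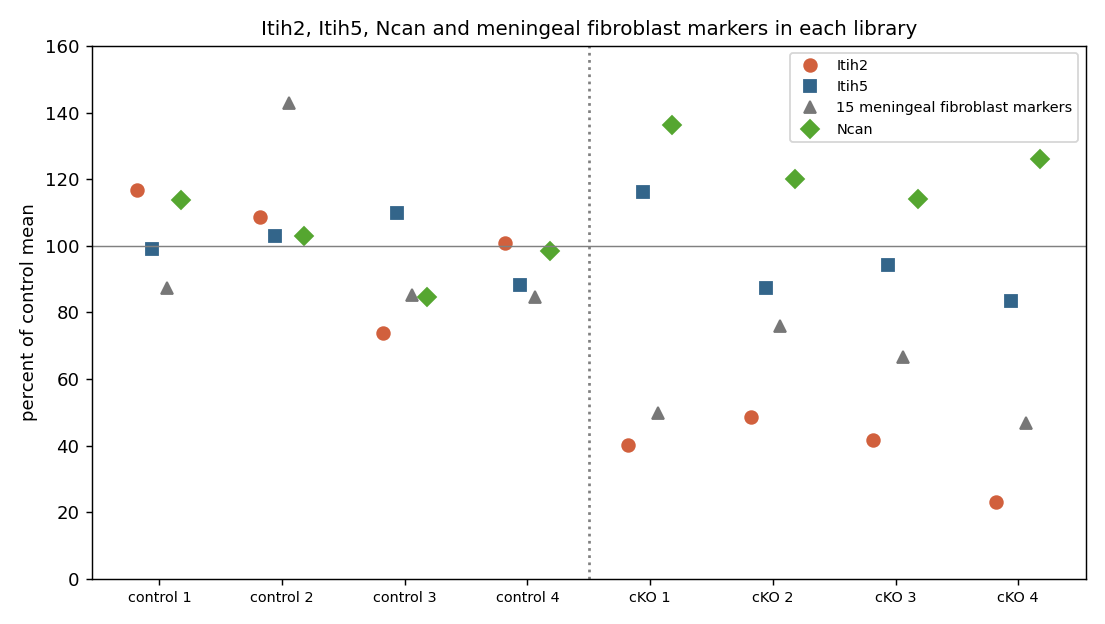
Level in each library (x axis, control replicates left of the dotted line) as percent of the control mean (y axis) for Itih2, its neighbour Itih5, Ncan and the summed CPM of 15 meningeal fibroblast markers. In SAP97-cKO libraries Itih2 is at 23.1% to 48.7% and the marker sum at 46.7% to 76.0%, while Itih5 stays at 83.5% to 116% and Ncan at 114% to 136%. Igf2 and Dcn weigh most in the marker sum.

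The hyaluronan synthase and receptor genes had low levels. Has2 (ENSMUSG00000022367, chr15:56665627-56694539, minus strand) had 9 to 18 raw reads in control and 13 to 26 in SAP97-cKO libraries. Its normalised read count was 9.01, 11.96, 17.5 and 12.6 in control and 13.2, 17.9, 26.35 and 26.0 in SAP97-cKO replicates 1 to 4. SAP97-cKO replicates 3 and 4 were well above all controls, replicate 2 was just above the highest of them, and replicate 1 was among them. Has2 had a log2 ratio of SAP97-cKO to control of 0.70 ± 0.33 (SE), with an adjusted p of 0.438 in edgeR, which did not pass the threshold. The antisense gene Has2os overlaps its exons, and whether counting used strand was not given, so reads of the pair cannot be told apart.

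Over the synthases, Has3, which makes shorter chains, was 63.1% ± 11.2 of the control total per length, Has1 24.0% ± 11.4 and Has2 12.9% ± 1.49 (SD, n = 4). The Has2 share was 10.8% to 14.0% in control and 12.7% to 22.4% in SAP97-cKO libraries. Has1 and Has3 varied more between libraries than between genotypes. The log2 ratio was -0.08 ± 0.44 (SE) for Has1 and 0.16 ± 0.24 (SE) for Has3.

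Cd44 (ENSMUSG00000005087, chr2:102811141-102901665, minus strand), the main cell surface receptor for hyaluronan, had 97.1, 151.5, 127 and 190.3 normalised counts in control replicates. SAP97-cKO replicates 1 to 4 had 121, 211, 137 and 96.6. Both genotypes ran from about the same lowest to about the same highest value, and the mean was 141.5 ± 39.4 in control and 141.4 ± 49.3 in SAP97-cKO libraries (SD, n = 4). This gave a log2 ratio of -0.00070 ± 0.26 (SE), with an adjusted p of 0.999 in edgeR.

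Among the lecticans, Bcan and Ncan were abundant and Acan was scarce. Bcan (ENSMUSG00000004892, chr3:87987531-88000230, minus strand) encodes brevican, which is made by astrocytes as well as neurons. It had 7006, 7228, 7255 and 8036 normalised counts in control and 9298, 7323, 8489 and 8347 in SAP97-cKO replicates 1 to 4. Of the SAP97-cKO libraries 3 were above all controls and replicate 2 was among them. Bcan had a log2 ratio of SAP97-cKO to control of 0.18 ± 0.08 (SE), with an adjusted p of 0.426 in edgeR.

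Ncan (ENSMUSG00000002341, chr8:70093085-70120873, minus strand) encodes neurocan, a lectican of neurons and astrocytes that is highest in the developing brain. It had 6701, 6064, 4986 and 5792 normalised counts in control replicates. SAP97-cKO replicates 1 to 4 had 8024, 7067, 6717 and 7415. Every SAP97-cKO library was above every control, although control replicate 1 and SAP97-cKO replicate 3 were almost level (6701 and 6717). The mean was 5886 ± 711 in control and 7306 ± 557 in SAP97-cKO libraries (SD, n = 4), or 124% of control. Its log2 ratio was 0.31 ± 0.09 (SE), with an unadjusted p of 0.00786 and an adjusted p of 0.341 in edgeR. It did not pass the threshold in edgeR, but did in DESeq2 (0.32, adjusted p = 0.101) and, in edgeR, without control replicate 1 (0.38, adjusted p = 0.180) and with the replicate number as a block (0.32, adjusted p = 0.231). Those 3 settings called more genes higher in all, 445, 715 and 22 in that order, beside 2 in the main fit. With single libraries left out, the adjusted p of Ncan from edgeR ran from 0.180 to 0.695.

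Acan (ENSMUSG00000030607, chr7:79053483-79115099, plus strand) encodes aggrecan, the lectican most tied to nets around neurons. It had 170.1, 246, 212 and 163 normalised counts in control replicates. SAP97-cKO replicates 1 to 4 had 233, 112.5, 167 and 256.5. The SAP97-cKO libraries ran below and above the control range, and their coefficient of variation was 33.9% against 19.6% in controls. Acan had a log2 ratio of SAP97-cKO to control of -0.04 ± 0.24 (SE), with an adjusted p of 0.957 in edgeR. Its direction turned when control replicate 2 or 3 or SAP97-cKO replicate 2 or 3 was left out. The end of Acan lies 2 bp from that of Hapln3 on the other strand, without overlap of the annotated genes. The intervals listed in the count table reach past the annotated ends and do overlap. Whether reads at that junction could fall to either gene is not known.

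Per length, Bcan made 66.9% ± 3.10 and Ncan 30.1% ± 3.17 of lectican RNA in control libraries, with 2.07% ± 0.40 from Vcan (versican, a lectican of white matter and precursor cells) and 0.98% ± 0.21 from Acan (SD, n = 4). In SAP97-cKO libraries the shares were 65.1% ± 1.69, 32.2% ± 1.81, 1.87% ± 0.10 and 0.81% ± 0.24. Each share overlapped between genotypes. The lectican sum was 68.8 to 76.2 CPM per kb in control and 76.2 to 93.7 CPM per kb in SAP97-cKO libraries, so that the highest control and the lowest SAP97-cKO library met. As a sum over genes of the set it was given no test.

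Markers of the cells that make lecticans are given beside these values. The sum of 10 astrocyte markers was 5351 to 6181 CPM in control and 5626 to 7004 CPM in SAP97-cKO libraries, and SAP97-cKO replicate 1 was highest both there and for Bcan and Ncan. The sum of 5 oligodendrocyte precursor markers was 169 to 189 CPM in control and 168 to 196 CPM in SAP97-cKO libraries. The sum of 6 neuron markers was 9521 to 10560 CPM in control and 10530 to 11970 CPM in SAP97-cKO libraries, and the overlap was gone without TMM scaling. None of the markers in these 3 lists was at 0 in any library, and their part in the lectican values was not tested.

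The link protein genes were Hapln4 and Hapln1. Hapln4 (ENSMUSG00000007594, chr8:70083457-70090862, plus strand), known as brain link protein 2 and partner of brevican in nets, ends 2222 bp from the end of Ncan. It had 7869, 7391, 9889 and 6077 normalised counts in control and 7249, 8272, 10250 and 11560 in SAP97-cKO replicates 1 to 4. Both genotypes spread widely, with coefficients of variation of 20.3% and 20.8%, and only SAP97-cKO replicates 3 and 4 were above all controls. Hapln4 had a log2 ratio of SAP97-cKO to control of 0.26 ± 0.17 (SE), with an adjusted p of 0.545 in edgeR.

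Hapln1 (ENSMUSG00000021613, chr13:89539796-89611652, plus strand), whose link protein is needed for normal nets and for cartilage, is the neighbour of Vcan at 43659 bp. It had 1493, 1511, 1397 and 1703 normalised counts in control and 1709, 1359, 1531 and 1571 in SAP97-cKO replicates. The ranges were almost the same, and coefficients of variation were 8.39% and 9.34%. The log2 ratio was 0.02 ± 0.09 (SE, adjusted p = 0.954 in edgeR), with a direction that turned without TMM scaling (-0.03). The smallest spread of the 10 genes was that of Bcan in control (6.11%) and of Ncan in SAP97-cKO libraries (7.63%), and the medians over all genes were 12.3% and 9.72%.

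Hapln4 made 78.4% ± 3.10 of link protein RNA per length in control and 83.1% ± 5.03 in SAP97-cKO libraries (SD, n = 4). Hapln1 made 10.5% ± 2.56 and 9.36% ± 1.77. Hapln2, the link protein of nodes of Ranvier made by oligodendrocytes, made 10.6% ± 0.93 and 7.08% ± 3.15, and Hapln3 0.52% ± 0.28 and 0.44% ± 0.15. The Hapln2 share was 11.6% in SAP97-cKO replicate 1 and 4.16% to 6.37% in replicates 2 to 4. The sum of 7 oligodendrocyte markers split the same libraries, with 7754 CPM in SAP97-cKO replicate 1 and 4292 to 4675 CPM in replicates 2 to 4, and 5476 to 8829 CPM in controls. Its part in the link protein shares was not tested.

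Nets surround parvalbumin interneurons and CA2 neurons, so markers of both are given beside the net genes. The sum of 5 parvalbumin interneuron markers was 124 to 213 CPM in control and 90.9 to 121 CPM in SAP97-cKO libraries, without overlap, and none was at 0. Syt2 and Pvalb were the most abundant of them, with log2 fold changes of -0.61 (standard error 0.29, adjusted p = 0.444 from edgeR) and -0.56 (standard error 0.19, adjusted p = 0.353 from edgeR), and 0 of the 5 was past the threshold. The other 3 had -0.14 (Cox6a2), -0.05 (Kcns3) and 0.05 (Lhx6), and each of the 5 overlapped between genotypes by itself. The sum of 4 CA2 neuron markers overlapped, with 201 to 248 CPM in control and 199 to 223 CPM in SAP97-cKO libraries. Acan overlapped widely between the genotypes, as did Hapln1 and Hapln4.

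In order of control level per kb of merged exon, the 10 genes were Hapln4 (53.2 ± 10.8 CPM per kb), Bcan (48.6 ± 2.97), Ncan (21.9 ± 2.64), Hapln1 (6.91 ± 0.58), Itih5 (5.69 ± 0.51), Itih3 (5.65 ± 1.26), Itih2 (1.45 ± 0.27), Acan (0.71 ± 0.14), Cd44 (0.56 ± 0.16) and Has2 (0.08, each SD with n = 4). Hapln4 and Bcan overlapped, as did Itih3 with Hapln1 and Itih5, and Acan with Cd44, so these orders are within the spread. Using the length of the longest transcript, Bcan stood above Hapln4 and Itih3 above Itih5. In SAP97-cKO libraries Itih2 had 0.56 ± 0.16 CPM per kb (SD, n = 4), close to the control level of Cd44.

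The rest of the pathway was described from a list of 52 related genes, of which 51 were in the table and 47 passed the filter. None of the 47 was past the threshold in edgeR (0.295% of all genes were, in either direction). At an unadjusted p under 0.05 in edgeR, 3 of the 47 were lower and 6 higher (7.01% of all genes were lower and 4.73% higher). DESeq2 called 1 lower and 6 higher, but of all 16251 genes it called 588 lower and 445 higher. The log2 fold change was below 0 for 22 and above 0 for 25, with a median of 0.014 beside -0.012 for all genes. The genotypes did not overlap for 6 of the 47 genes: Tnc, Chpf2, Chsy1, Xylt1 and Cspg4 above and Csgalnact2 below control. Over all genes 6.25% did not overlap, 2.78% above and 3.47% below control.

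The genes higher with the smallest p were Tnc, Chpf2 and Xylt1. Tnc encodes tenascin-C, a matrix glycoprotein of glia and of growing tissue. It had 267, 268, 312 and 217 normalised counts in control and 393, 382, 416.5 and 332 in SAP97-cKO replicates 1 to 4. Tnc had a log2 ratio of 0.52 ± 0.13 (SE), with an adjusted p of 0.316 in edgeR, 0.140 with the replicate block and 0.0264 in DESeq2. Chpf2 and Xylt1 act in chondroitin sulfate synthesis, Xylt1 by adding the first sugar to the core protein and Chpf2 in lengthening the chain. Their log2 fold changes were 0.32 (standard error 0.08) and 0.30 (standard error 0.08), both with an adjusted p of 0.316 from edgeR.

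The genes lower with the smallest p were Lyve1, Csgalnact2 and Hapln2. Lyve1, a hyaluronan receptor of lymphatic endothelium and of macrophages at the borders of the brain, had 75.1, 87.7, 39.8 and 75.7 normalised counts in control and 45.8, 23.9, 38.5 and 21.8 in SAP97-cKO replicates. Control replicate 3 lay among the SAP97-cKO libraries. Lyve1 had a log2 ratio of -1.09 ± 0.31 (SE), with an adjusted p of 0.331 in edgeR and 0.0814 in DESeq2. Csgalnact2, which starts chondroitin sulfate chains, had -0.21 (standard error 0.09, adjusted p = 0.402) and Hapln2 -0.47 (standard error 0.21, adjusted p = 0.423), both from edgeR. Beside Lyve1, the sum of 6 microglia markers was 354 to 461 CPM in control and 343 to 439 CPM in SAP97-cKO libraries.

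By role, 7 of 7 net partners (Tnr, Tnc, Ptprz1, Cspg4, Cspg5, Nptx2 and Sema3a) had a log2 fold change above 0, with a median of 0.28, beside 7677 of all 16251 genes. Without TMM scaling it was 6 of 7, with a median of 0.23, and none of the 7 was past the threshold in edgeR. It was also 6 of 7 with limma-voom, with the replicate block and with the meningeal fibroblast covariate. Leaving out SAP97-cKO replicate 1 or control replicate 1, 2 or 3 gave 6 of 7 as well, and leaving out SAP97-cKO replicate 2 gave 5 of 7. Sema3a was uneven, at 0.29 to 1.12 CPM per kb in SAP97-cKO (mean 0.52) and 0.40 to 0.65 in control libraries (mean 0.49). Of 9 other hyaluronan-binding genes 7 were below 0 (8 without TMM), with a median of -0.28, and of 14 chondroitin sulfate synthesis genes 9 were above 0 (8 without TMM), with a median of 0.10. The 6 hyaluronan synthesis genes had a median of -0.04, the 5 breakdown genes -0.12 and the 6 lectican proteases 0.05. Within each group at least 1 gene had a standard error as large as its change.

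**Figure D4:**
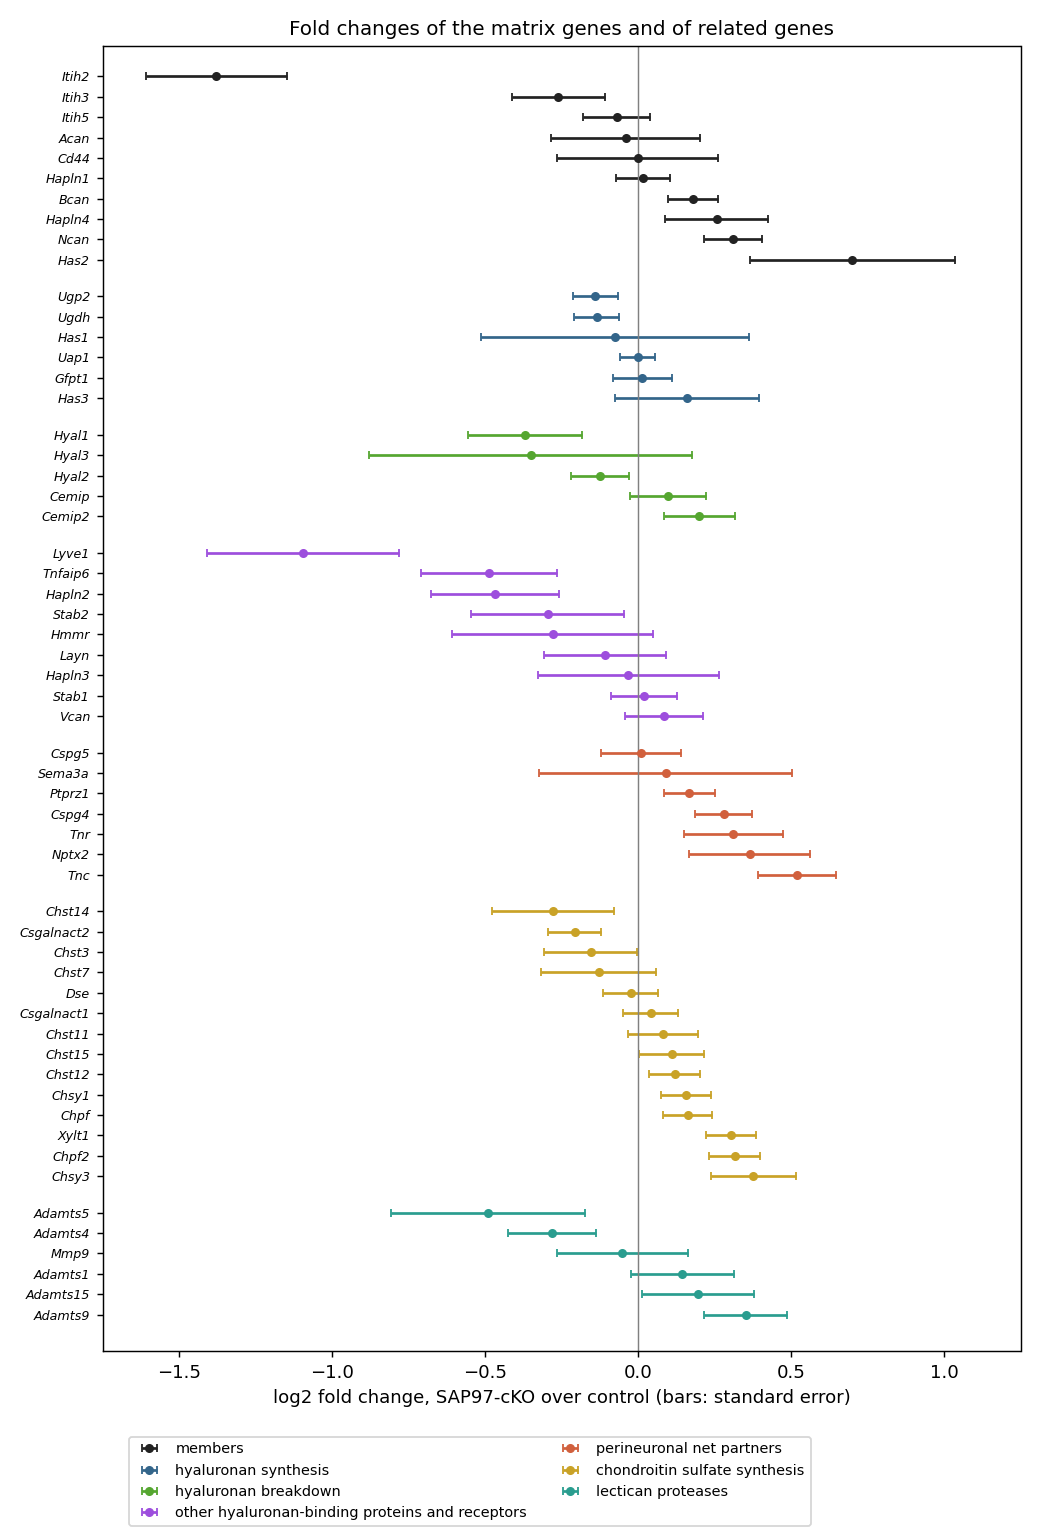
Log2 fold change, SAP97-cKO over control (x axis), with its standard error (bars) for the 10 genes (black) and 47 related genes grouped by role. Itih2, chosen for its lower level, is at -1.38 and Lyve1 at -1.09, and the 7 net partners lie between 0.01 and 0.52.

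Shared variation beyond genotype was described over the 8 libraries after the genotype means were removed. The 45 pairs of the 10 genes had a median size of Pearson's r of 0.34, and the largest were 0.92 for Bcan and Hapln1, -0.82 for Ncan and Has2, 0.75 for Hapln4 and Has2 and -0.71 for Itih3 and Ncan, as a description with no test. Of the 45, 5 pairs picked by position or role were compared by permutation within genotype. Pearson's r was 0.12 for the neighbours Itih2 and Itih5 (Spearman's rho 0.07, exact permutation p = 0.825 and 0.896) and 0.14 for Bcan and Ncan (rho 0, exact permutation p = 0.733 and 1). It was 0.42 for Acan and Hapln1 (rho 0.36, exact permutation p = 0.380 and 0.429) and 0.31 for Acan and Hapln4 (rho 0.26, exact permutation p = 0.510 and 0.583). Of these 5 pairs, the largest in size was -0.65 for Itih2 and Acan (rho -0.64, exact permutation p = 0.170 and 0.146). Adjusted over the 5 pairs, each Pearson p was 0.825, and the Spearman p ran from 0.729 to 1. Without the 2 libraries farthest from the median, r was -0.39, -0.29, -0.12, -0.04 and -0.63 in that order, so only that of Itih2 and Acan kept its sign.

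The genes most like 4 of the set were found by the same residual correlation over 14057 genes with at least 1 CPM, as a description over 8 libraries that share depth and dissection. Most like Itih2 were Fxyd5 (r = 0.96), Emp3 (0.96), Slc6a13 (0.95) and Plekhf2 (0.95), of which Slc6a13 is 1 of the 15 meningeal fibroblast markers. Most like Itih5 were Foxn3 (r = 0.99), Otud7b (0.99), Snx25 (0.98) and Hip1 (0.98), with none of the first list among them. For Acan they were Pwwp2b (r = 0.99), Fam228b (0.96), Sfrp4 (0.95) and E130317F20Rik (0.95). For Bcan they were Rnf39 (r = 0.99), Pot1b (0.97), Gk (0.97) and Hsd11b1 (0.96). With so many genes searched over 8 libraries, values of this size carry no test.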

How the data were processed

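RNA was taken from 4 control and 4 SAP97-cKO male hippocampi. Per the labels and methods, the authors used STAR 2.5.3a for alignment to mm10 (GRCm38.p5), removed ribosomal and mitochondrial reads, resampled each library to a common depth with PORT and deposited whole-number counts per Ensembl gene. The sources used here do not state whether counting used strand. The table also holds the authors' own fold changes, p-values and q-values, which were not used.

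Genes were filtered with filterByExpr (minimum count 10, minimum total 15), which left 16251 of 25834, scaled by TMM and compared with edgeR 4.0.16 in R 4.3.3 over all 8 libraries. Calls use an adjusted p under 0.25, the study's threshold, and the fit was tested on simulated counts. Each library pair differed beyond sampling noise (chi-square per gene 9.62 to 72.0). Coordinates come from GENCODE M21, which held 25696 of the identifiers. Log2 CPM used a prior count of 2. Covariation used scipy 1.17.1 and plots matplotlib 3.10.9. Alternatives were limma-voom (limma 3.58.1), DESeq2 1.42.0, other scalings and filters, a stricter threshold, a replicate block, a meningeal fibroblast covariate and libraries left out in turn. The genes named one by one were the 10 genes, Dlg1, the 3 related genes of smallest p above and below 0, the 2 most abundant markers of a list without overlap and the 4 genes most like Itih2, Itih5, Acan and Bcan. The genes and lists were chosen with earlier results of these data known.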

Additional observations from a re-analysis of the deposited data

Results flagged for a closer look

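In 44 groups of 4 libraries (gene levels and marker sums by genotype), 4 had a library set apart from the others by Dixon's criterion, where chance gives about 1 in 20. Control replicate 2 had 563 CPM of meningeal fibroblast markers, control replicate 3 had 212.5 CPM of parvalbumin interneuron markers, control replicate 4 had 460.5 CPM of microglia markers, and SAP97-cKO replicate 1 had 7754 CPM of oligodendrocyte markers. None of the 10 matrix genes had such a library in either genotype.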

How the results depend on the processing

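The 46 lower and 2 higher genes in all became 588 and 445 with DESeq2, 94 and 1 without TMM, 89 and 15 without the filter, 234 and 22 with the replicate block, 0 and 0 at an adjusted p under 0.05 and 0 and 0 with the meningeal covariate (629 genes at an unadjusted p under 0.05 there, 1907 without it). Leaving out single libraries gave 0 to 960 lower and 0 to 715 higher. Limma-voom gave 48 and 2, and DESeq2 size factors and the filter of 10 counts in every library both gave 33 and 2. Of the matrix genes chosen by role, which leaves out Itih2, 0 lower became 0 to 1 without single libraries (Itih3 without control replicate 1). For the same genes, 0 higher became 1 with DESeq2, 1 with the block and 0 to 1 without single libraries. Of the related genes, 0 lower became 1 with DESeq2 and 0 to 4 without single libraries, and 0 higher became 6 with DESeq2, 1 with the block and 0 to 7 without single libraries. The cause was not tested. The most calls in all came without control replicate 1 (960 and 715) and without SAP97-cKO replicate 1 (450 and 261), and there were 0 without control replicate 2, SAP97-cKO replicate 3 or SAP97-cKO replicate 4.

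Itih2, chosen by this contrast, stayed between -1.51 and -1.20 on the log2 scale without single libraries and was -0.38 with the covariate. The meningeal covariate does not overlap between genotypes and so stands partly for genotype. Among genes that kept their direction, the covariate also moved Acan from -0.04 to -0.78, Itih3 from -0.26 to -0.58 and Has2 from 0.70 to 0.23. Ncan (0.37), Bcan (0.04) and Itih5 (-0.13) moved less with it. Directions turned for Acan (-0.04; -0.21 to 0.15 without single libraries, above 0 without control 2 or 3 or SAP97-cKO 2 or 3), Hapln1 (0.02; -0.031 without TMM, -0.085 with the covariate, -0.031 to 0.073 without single libraries, below 0 without control 3 or SAP97-cKO 1), Cd44 and, with the covariate, Hapln4 (0.26; -0.20). Cd44 was 0.0046 with DESeq2, 0.0047 with its size factors, 0.0059 without the filter, 0.0021 with 10 counts in every library, 0.84 with the covariate (adjusted p = 1.00) and -0.26 to 0.18 without single libraries, above 0 without control 2 or 4 or SAP97-cKO 1, 3 or 4.

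The pairs' r ran without single libraries from -0.54 (SAP97-cKO 4 out) to 0.39 for Itih2 and Itih5, from -0.17 (SAP97-cKO 2 out) to 0.77 for Acan and Hapln1 and from -0.20 (SAP97-cKO 1 out) to 0.44 for Bcan and Ncan, and no pair passed a test in any setting. Same-numbered libraries correlated by -0.06 to 0.26, and 3 of the 4 controls, all but replicate 1, matched their own number best. No label ties a number to a litter or day, so the samples were not treated as paired. With the replicate number as a block, Ncan (adjusted p = 0.231, log2 fold change 0.32) and Tnc (0.140) passed the threshold. With the longest transcript as length, Bcan was 62.8 CPM per kb in control. Has2, at 9 to 26 reads, is limited by depth.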
